A study of Homo sapiens with 12 samples.

Results

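Described here are 9 genes, of 27130 in a deposited RNA-seq count table, that are central to the epithelial-mesenchymal transition (EMT). They were chosen by name: the transcription factor genes SNAI1, SNAI2, ZEB1, ZEB2 and TWIST1, the cadherin genes CDH1 and CDH2, the intermediate filament gene VIM and the surface antigen gene EPCAM. All 9 had a row in the table. Poly(A) RNA of H1 (WA01) cells, a human embryonic stem cell line, was sequenced in 12 libraries, 3 in each of 4 groups, in a study that asked how ZNF263, with ZIC2 as its cofactor, acts in pluripotency. The groups were wild type cells (WT), cells with a homozygous ZNF263 knockout (ZNF263 KO), cells with the same knockout genotype that overexpressed ZIC2 (ZNF263 KO with ZIC2 OE), and cells that overexpressed ZNF263 (ZNF263 OE). ZNF263 and ZIC2 are zinc finger transcription factors. The names of the WT and ZNF263 KO libraries also carry the tag vec, and those of both knockout groups share the tag 2-10. The sources used here do not give the number of knockout clones, the promoter of each overexpression construct, or whether the libraries of a group were separate cultures. Each p-value thus reflects the spread among these libraries alone, and that spread may be technical.

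In an EMT, epithelial cells give up their junctions and polarity and gain a motile, mesenchymal form. The repressors of the SNAI, ZEB and TWIST families bind E-box sequences in epithelial gene promoters, CDH1 among them, and a fall of CDH1 (E-cadherin) with a rise of CDH2 (N-cadherin) and VIM (vimentin) is the textbook sign of the change. Human embryonic stem cells grow as epithelial colonies that hold CDH1 and EPCAM at their surface and also express VIM, and a partial EMT accompanies their exit towards mesoderm in culture and in the primitive streak of the embryo. The microRNAs of the miR-200 family repress ZEB1 and ZEB2, and the ZEB proteins repress the miR-200 genes in return.

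The mature miR-200 sequences are shown because their pairing with ZEB1 and ZEB2 is the best known sequence feature that these repressors share. They are printed 5′ to 3′ from RefSeq (GRCh38.p14), with the seed, bases 2 to 8, in capitals.
hsa-miR-200b-3p: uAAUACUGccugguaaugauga
hsa-miR-200c-3p: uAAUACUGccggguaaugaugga
hsa-miR-429: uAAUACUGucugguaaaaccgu
hsa-miR-200a-3p: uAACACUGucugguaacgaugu
hsa-miR-141-3p: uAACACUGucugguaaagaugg
The first 3 share the seed AAUACUG and the last pair share AACACUG. A match to either seed (CAGTATT or CAGTGTT, searched on the transcript strand) was found at 9 places in the 3′ UTR of ZEB1, which is 2549 bases long in the longest coding transcript of GENCODE v29, and at 9 places in that of ZEB2, which is 5370 bases long. For ZEB1, 6 matches were to AAUACUG and 3 to AACACUG, and for ZEB2 the numbers were 5 and 4. Of 4268 genes with a 3′ UTR at least as long as that of ZEB1, itself included, 49.0% held at least 1 match within the same length. Of the 4268, 2 genes, or 0.0469%, held 9 or more, and they were ZEB1 and ZEB2 themselves. At the length of ZEB2, 74.9% of 1057 genes held a match and 1 gene, ZEB2 itself, held 9 or more. The base after the match was an A, which favours microRNA binding, at 4 of the 9 places in ZEB1 and at 8 of the 9 in ZEB2. One such place per seed is shown for each gene on GRCh38, with the match in capitals.
ZEB1, 369 bases after the stop codon (chr10:31527624-31527648, plus strand): ttatcttatCAGTATTatcactctt
ZEB1, 1533 bases after the stop codon (chr10:31528788-31528812, plus strand): ttgatttaaCAGTGTTatgttaaca
ZEB2, 455 bases after the stop codon (chr2:144388981-144389005, minus strand): acaatgcatCAGTATTatgattcct
ZEB2, 208 bases after the stop codon (chr2:144389228-144389252, minus strand): aattttgtaCAGTGTTaaggcctaa
A match is a description of the letters and not a measured site. The libraries hold poly(A) RNA, so the mature microRNAs themselves were not measured here.

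Promoter windows were at hand for 4 of the 9 genes (ZEB1, ZEB2, CDH2 and VIM). VIM and CDH2 were higher in both knockout groups against WT under all 13 alternatives. As an example, the window of VIM is shown from 250 bases to 1 base before its start on the plus strand of GRCh38.p14 (chr10:17227991-17228240).
VIM: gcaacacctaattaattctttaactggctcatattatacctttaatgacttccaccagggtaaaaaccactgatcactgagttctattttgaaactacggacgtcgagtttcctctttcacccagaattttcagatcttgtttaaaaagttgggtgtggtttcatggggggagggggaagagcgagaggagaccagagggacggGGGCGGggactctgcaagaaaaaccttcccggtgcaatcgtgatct
The capitals mark a GC box (GGGCGG, searched on both strands), the binding motif of SP1-like factors, which lay 46 bases before the start. The same motif was present in 42.6% of 35116 promoter windows of that length. An E-box of the type bound by SNAI and ZEB proteins (CACCTG, both strands, 17.5% of windows) and the GA-rich heptamer GGGAGGA (both strands, 16.0% of windows) were not among these letters. A window of ZEB1, not shown, held 2 such E-boxes and 1 GA-rich match, and another window of ZEB1 held 1 E-box.

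Libraries held 17175183 to 21804410 counts, except ZNF263 KO replicate 1 with 43464609. ZNF263 stood at 39.2 ± 1.35 CPM (SD, n = 3) in WT, 31.1 ± 0.1285 in ZNF263 KO, 32.25 ± 3.15 in ZNF263 KO with ZIC2 OE and 239.6 ± 18.0 in ZNF263 OE. Most of its transcript was thus still counted in the knockout groups, and counts cannot show whether it codes for protein. ZIC2 stood at 208.5 ± 3.74 CPM in WT, 156.1 ± 3.805 in ZNF263 KO, 212 ± 4.68 in ZNF263 OE and 2040 ± 175.3 in ZNF263 KO with ZIC2 OE. CPM are normalised counts, scaled to the library totals with TMM factors. All 8 pluripotent cell markers were detected in every group. Their summed level was 6834 to 6873 CPM in WT and 7110 to 7256 in ZNF263 OE. It was 7438 to 7579 CPM in ZNF263 KO and 7127 to 7283 in ZNF263 KO with ZIC2 OE. WT was thus lowest and ZNF263 KO highest, each without overlap with another group. In bulk RNA, fewer cells of a kind cannot be told apart from less RNA per cell, which holds for every level below.

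Adjusted for gene length, the order of the genes was stable at the top. In CPM per kilobase (kb), EPCAM came first with 167.6 ± 5.73 in WT, ahead of VIM with 81.9 ± 5.11, CDH1 with 53.9 ± 0.917 and CDH2 with 19.25 ± 0.672. These 4 kept that order, with no overlap between neighbours, in all 4 groups. Far below them came SNAI1 with 2.60 ± 0.122 CPM per kb in WT and SNAI2 with 0.681 ± 0.163. TWIST1 (0.217 ± 0.0603), ZEB1 (0.1465 ± 0.0217) and ZEB2 (0.101 ± 0.0272) closed the order in WT, each separate from the next. The same places held in both knockout groups, where only the neighbours SNAI2 and TWIST1 in ZNF263 KO overlapped. In ZNF263 OE the last 3 were ZEB1 (0.229 ± 0.0183), ZEB2 (0.131 ± 0.0400) and TWIST1 (0.1205 ± 0.0372), and the ranges of ZEB2 and TWIST1 overlapped. The repressor genes of the EMT thus lay below the surface, cadherin and filament genes in every library.

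**Figure D1:**
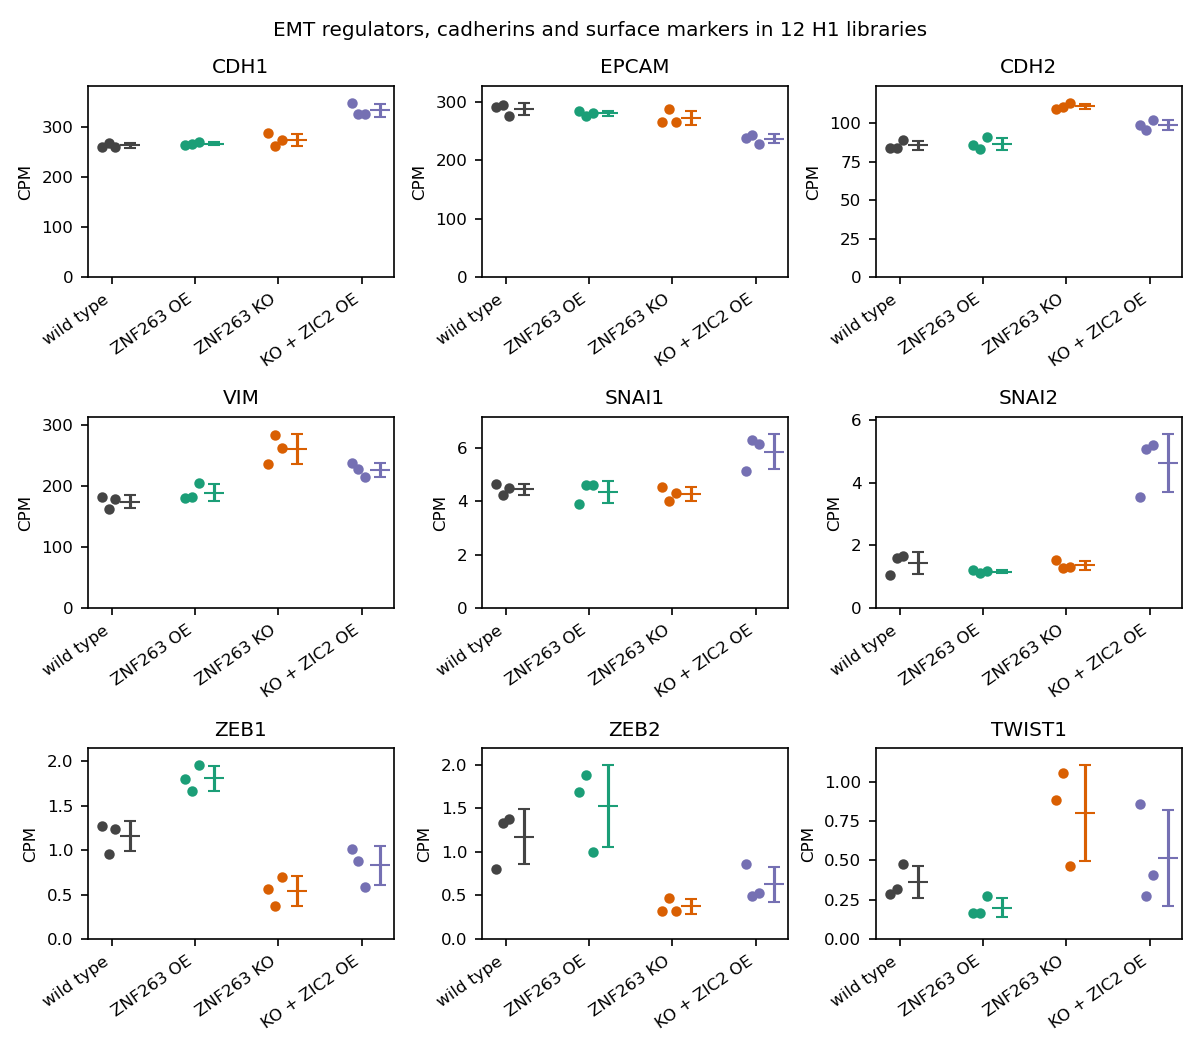
Level of each of the 9 genes in CPM (vertical axes, each starting at 0) in the 12 libraries, by group on the horizontal axes. Points are libraries, and the bar beside them is the mean with the SD of 3 libraries. The means of VIM and CDH2 are highest in ZNF263 KO, those of SNAI2 and CDH1 in ZNF263 KO with ZIC2 OE, and those of ZEB1 and ZEB2 are lowest in ZNF263 KO.

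Counts were compared between groups with the quasi-likelihood test of edgeR over all 15437 genes that passed a filter on low counts, and an adjusted p under 0.05 was taken as a call. All 9 genes passed the filter, but ZEB2 and TWIST1 did so unevenly. The filter asked for 0.528 CPM in 3 libraries, and ZEB2 reached it in every WT and ZNF263 OE library but in 0 of 3 ZNF263 KO and 1 of 3 ZNF263 KO with ZIC2 OE libraries. TWIST1 reached it in 0 of the 6 WT and ZNF263 OE libraries, in 2 of 3 ZNF263 KO and in 1 of 3 ZNF263 KO with ZIC2 OE libraries. Counts over the set therefore include a pair of genes that low values alone could have removed.

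In ZNF263 KO against WT, 5 of the 9 genes were called, where 38.6% of all tested genes were called (20.0% higher and 18.5% lower). VIM, CDH2 and TWIST1 were higher, and ZEB1 and ZEB2 were lower, while CDH1, EPCAM, SNAI1 and SNAI2 were not called. The mesenchymal filament and cadherin genes and the ZEB repressors therefore moved in opposite directions. Replicates did not overlap for 4 of the 9, and for 46.7% of all tested genes. The median log2 fold change was -0.04 over the set and -0.01 over all tested genes. Against a background in which 38.6% of genes passed, the count of 5 is not a result about the set, and the values of each gene are given below.

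ZIC2 overexpression in the knockout cells gave 6 calls among the 9 genes, where 8.34% of all tested genes were called (4.99% higher and 3.35% lower). SNAI1, SNAI2 and CDH1 were higher in ZNF263 KO with ZIC2 OE than in ZNF263 KO, and CDH2, VIM and EPCAM were lower. The repressor genes SNAI1 and SNAI2 and the epithelial cadherin gene thus rose together, and the mesenchymal markers fell together with an epithelial one. SNAI3, a SNAI family gene outside the set that was chosen after its values were seen, went the other way, without overlap between the libraries. It stood at 5.126, 5.90 and 4.24 CPM in ZNF263 KO and at 3.85, 3.26 and 3.92 CPM with ZIC2. Replicates did not overlap for 6 of the 9, and for 21.8% of all tested genes. The median log2 fold change was 0.28 over the set and -0.00 over all tested genes. The count of 6 fell to 3 (SNAI2, CDH1 and EPCAM) when only the libraries of this pair of groups were fitted, and also without ZNF263 KO replicate 3 or without ZNF263 KO with ZIC2 OE replicate 2. Over all genes, 771 were higher and 517 lower, and after a correction for GC content and gene length 872 were higher and 1423 lower. The same correction left 6 calls in the set.

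Between ZNF263 KO with ZIC2 OE and WT, 7 of the 9 genes were called, where 37.6% of all tested genes were called (20.3% higher and 17.3% lower). SNAI1, SNAI2, CDH1, CDH2 and VIM were higher, and ZEB2 and EPCAM were lower. Both cadherin genes thus stood above WT in these cells. Replicates did not overlap for 6 of the 9, and for 47.3% of all tested genes. The median log2 fold change was 0.34 over the set and 0.00 over all tested genes. This comparison shares the WT libraries with the knockout comparison above and the ZNF263 KO with ZIC2 OE libraries with the other, so its calls are not independent of theirs.

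ZNF263 OE against WT gave 0 calls among the 9 genes with edgeR, where 0.764% of all tested genes were called (0.317% higher and 0.447% lower). DESeq2 called 0 of the 5 for which it gave an adjusted p (SNAI1, CDH1, CDH2, VIM and EPCAM). At an unadjusted p under 0.05, ZEB1 alone passed, while 10.6% of all tested genes did. Replicates did not overlap for 2 of the 9, ZEB1 and TWIST1, and for 19.4% of all tested genes. The median log2 fold change was 0.02 over the set and 0.00 over all tested genes.

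**Figure D2:**
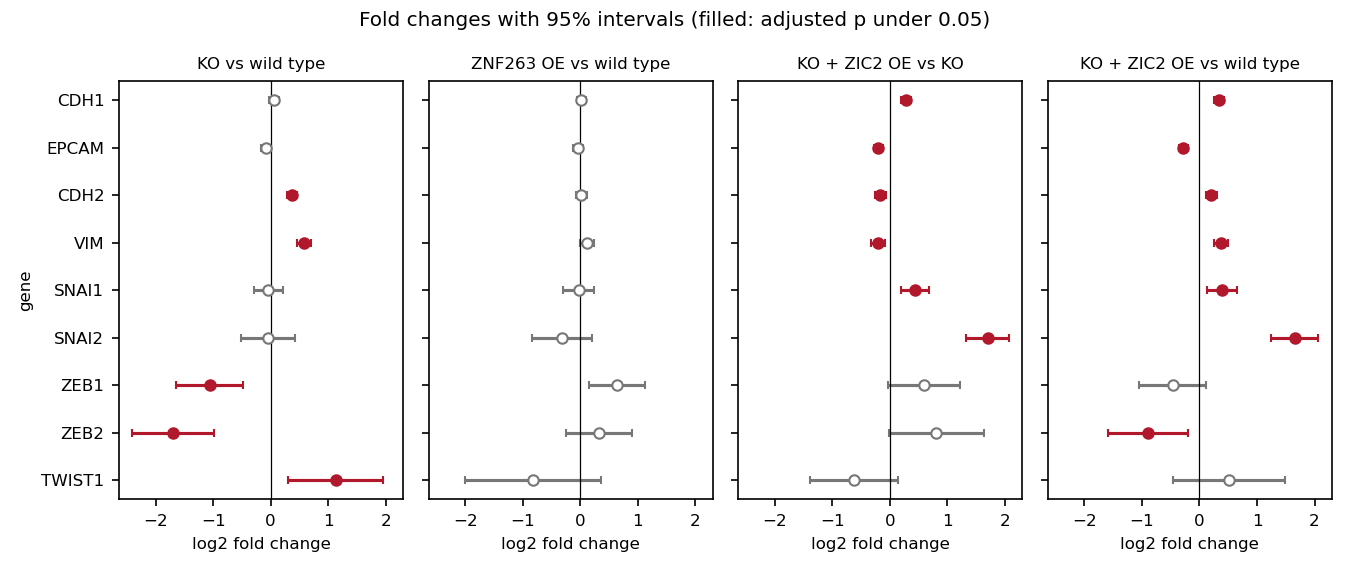
Log2 fold change of the 9 genes (horizontal axes) with its 95% interval in the 4 comparisons, from the edgeR fit over all tested genes. Filled points passed an adjusted p of 0.05: 5 genes in ZNF263 KO against WT, 0 in ZNF263 OE against WT, 6 in ZNF263 KO with ZIC2 OE against ZNF263 KO, and 7 in ZNF263 KO with ZIC2 OE against WT.

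Of the effector genes, CDH1 encodes E-cadherin, the adhesion receptor of epithelial adherens junctions (chromosome 16, 68771193 to 68869445, hg19, plus strand). Its levels were 261, 269 and 261 CPM in WT, 265, 266 and 270.2 in ZNF263 OE, and 287, 262 and 273 in ZNF263 KO. ZNF263 KO with ZIC2 OE held 347, 327 and 325.5 CPM. All 3 of the last group lay above all other libraries, and the ranges of the remaining groups overlapped. Against ZNF263 KO the log2 fold change was 0.28 (SE 0.04, adjusted p = 1.93e-05), a 1.22-fold higher level, and against WT it was 0.34 (SE 0.04, adjusted p = 5.07e-07). ZNF263 KO itself differed from WT by 0.06 (95% interval -0.02 to 0.14, adjusted p = 0.246), and ZNF263 OE by 0.02 (95% interval -0.06 to 0.10, adjusted p = 0.919).

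EPCAM encodes the epithelial cell adhesion molecule, a surface antigen of epithelial and pluripotent cells (chromosome 2, 47596287 to 47614167, plus strand). It stood at 292, 295 and 277 CPM in WT, 285, 277 and 281 in ZNF263 OE, 266, 287 and 265 in ZNF263 KO, and 238, 244 and 229 in ZNF263 KO with ZIC2 OE. The lowest group was again separate from all others, here on the low side, so that the 2 epithelial surface genes of the set moved in opposite directions under ZIC2. For ZNF263 KO with ZIC2 OE against ZNF263 KO the log2 fold change of EPCAM was -0.20 (SE 0.04, adjusted p = 0.00144) and against WT it was -0.28 (SE 0.04, adjusted p = 9.41e-06). For ZNF263 KO against WT the value was -0.08 (95% interval -0.16 to 0.00, adjusted p = 0.118). That value passed the test after the correction for GC content and gene length (-0.14, adjusted p = 0.000517) and without ZNF263 KO replicate 2 (-0.12, adjusted p = 0.0117).

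CDH2 encodes N-cadherin, the cadherin of neural and mesenchymal cells (chromosome 18, 25530927 to 25757410, minus strand). WT libraries held 83.95, 83.94 and 89.1 CPM and ZNF263 OE libraries 85.9, 83.1 and 90.95 CPM. In ZNF263 KO the values were 109, 110.4 and 113 CPM, and in ZNF263 KO with ZIC2 OE 98.9, 95.5 and 102 CPM. The knockout libraries were all highest and those with ZIC2 lay between them and WT, without overlap. The rise in ZNF263 KO against WT was 0.37 on the log2 scale (SE 0.04, adjusted p = 6.82e-07), or 1.29-fold. With ZIC2 the level was 0.16 lower than in ZNF263 KO (log2 fold change -0.16, SE 0.04, adjusted p = 0.0162) and still 0.21 higher than in WT (SE 0.04, adjusted p = 0.000847). The fall under ZIC2 lost its call when only this pair of groups was fitted (adjusted p = 0.0573) and without ZNF263 KO replicate 3, ZNF263 KO with ZIC2 OE replicate 1 or replicate 2 (adjusted p = 0.0554 to 0.093). In ZNF263 OE the difference from WT was 0.02 (95% interval -0.08 to 0.11).

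VIM encodes vimentin, the type III intermediate filament protein of mesenchymal cells (chromosome 10, 17270258 to 17279592, plus strand). Its levels were 183, 162.5 and 179 CPM in WT and 180.2, 183 and 206 CPM in ZNF263 OE. They reached 236, 284 and 263 CPM in ZNF263 KO and 238, 228 and 215 CPM in ZNF263 KO with ZIC2 OE. Both knockout groups were separate from WT, and they overlapped each other. The rise in ZNF263 KO against WT was 0.58 on the log2 scale (SE 0.06, adjusted p = 1.31e-07) or 1.49-fold, and the rise with ZIC2 against WT was 0.38 (SE 0.06, adjusted p = 4.45e-05). Between the knockout groups VIM was lower with ZIC2 by -0.20 (SE 0.06, adjusted p = 0.0382). That call was lost when only this pair of groups was fitted (adjusted p = 0.069) and without ZNF263 KO replicate 2 or 3 or ZNF263 KO with ZIC2 OE replicate 2 or 3 (adjusted p = 0.0856 to 0.177). For ZNF263 OE the value was 0.12 (95% interval -0.01 to 0.25, adjusted p = 0.516).

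Markers of fibroblasts, a cell type rich in vimentin, moved with VIM in part. The sum of 10 such markers was 510.3 to 522 CPM in WT, 512 to 526 in ZNF263 OE, 562 to 606 in ZNF263 KO and 644 to 691 in ZNF263 KO with ZIC2 OE. The higher sums came mostly from COL1A1 (69.2 ± 2.54 CPM in WT, 110.5 ± 6.36 in ZNF263 KO and 210.6 ± 21.3 with ZIC2) and COL1A2. THY1, the most abundant of the list, was at 337 ± 2.62, 343.6 ± 17.3 and 301.5 ± 3.97 CPM in these groups. The markers FAP, DCN, LUM and COL3A1 stood at 0 to 0.111 CPM in the group means. The highest sum was in ZNF263 KO with ZIC2 OE, whereas VIM was highest in ZNF263 KO.

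The repressor genes were counted at low levels, so their ratios are also given from pooled counts with exact 95% intervals, which cover counting error only. SNAI1 encodes Snail, a direct repressor of CDH1 (chromosome 20, 48599513 to 48605420, plus strand). Its levels were 4.62, 4.21 and 4.48 CPM in WT, 3.87, 4.60 and 4.58 in ZNF263 OE, 4.52, 4.004 and 4.29 in ZNF263 KO, and 5.12, 6.29 and 6.15 in ZNF263 KO with ZIC2 OE. The group with ZIC2 was above every other library. Its pooled counts were 1.34 times those of ZNF263 KO at equal depth (320 and 362 counts, interval 1.15 to 1.56). The log2 fold change was 0.43 against ZNF263 KO (SE 0.12, adjusted p = 0.0215) and 0.39 against WT (SE 0.12, adjusted p = 0.0156). Against ZNF263 KO the call was lost with DESeq2 (adjusted p = 0.131), with only this pair of groups (adjusted p = 0.0554) and without ZNF263 KO replicate 3 or ZNF263 KO with ZIC2 OE replicate 2 or 3 (adjusted p = 0.0522 to 0.112). Against WT it was lost with DESeq2 (adjusted p = 0.0741), after the correction for GC content and gene length (log2 fold change 0.19, adjusted p = 0.298) and without WT replicate 2 or ZNF263 KO with ZIC2 OE replicate 2 or 3 (adjusted p = 0.0521 to 0.0713). In ZNF263 KO against WT the value was -0.04 (95% interval -0.29 to 0.22, adjusted p = 0.843).

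SNAI2, which encodes Slug, a relative of Snail active in neural crest and mesoderm (chromosome 8, 49830239 to 49833999, minus strand), showed the largest change under ZIC2 in the set. It stood at 1.04, 1.60 and 1.67 CPM in WT, 1.20, 1.11 and 1.18 in ZNF263 OE, and 1.54, 1.26 and 1.31 in ZNF263 KO. The libraries of ZNF263 KO with ZIC2 OE held 3.55, 5.08 and 5.21 CPM. Each of these was more than 2 times the highest of the other 9 libraries. The rise against ZNF263 KO was 1.70 on the log2 scale (SE 0.18, adjusted p = 6.92e-07), and pooled counts gave a 3.23-fold higher level (251 and 118 counts, interval 2.58 to 4.05). Against WT the log2 fold change was 1.65 (SE 0.20, adjusted p = 8.82e-07). All 13 alternatives of either comparison kept the call. ZNF263 KO differed from WT by -0.05 (95% interval -0.52 to 0.43, adjusted p = 0.899) and ZNF263 OE by -0.32 (95% interval -0.85 to 0.21).

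The summed level of markers of neural crest, where SNAI2 is a defining factor, was higher in the same libraries, mostly through 1 gene, NGFR. The sum of 7 markers was 33.1 to 34.7 CPM in WT, 31.0 to 34.0 in ZNF263 OE, 36.3 to 38.4 in ZNF263 KO and 43.6 to 47.4 in ZNF263 KO with ZIC2 OE. NGFR, a neurotrophin receptor, went from 6.73 ± 0.299 CPM in ZNF263 KO to 16.3 ± 1.23 with ZIC2. FOXD3, the most abundant marker of the list, was at 28.4 ± 0.831 CPM in ZNF263 KO and 26.0 ± 0.976 with ZIC2. The neural crest factor SOX10 stood at 1.81 ± 0.211 and 2.28 ± 0.227 CPM in these groups. In the same order, PAX3 was at 0.237 ± 0.116 and 0.647 ± 0.214, PAX7 at 0.07025 ± 0.1217 and 0.162 ± 0.0429, and MSX1 at 0.132 ± 0.0823 and 0.205 ± 0.0967. TFAP2B was at 0 in every group but ZNF263 KO, where it stood at 0.0388 ± 0.0673 CPM. The part of such cells in the SNAI2 result was not tested.

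ZEB1, a zinc finger and homeobox repressor of CDH1 (chromosome 10, 31607424 to 31818742, plus strand), was lowest in ZNF263 KO. Its levels were 1.27, 0.960 and 1.24 CPM in WT, 1.80, 1.66 and 1.95 in ZNF263 OE, 0.559, 0.369 and 0.6995 in ZNF263 KO, and 1.01, 0.883 and 0.586 in ZNF263 KO with ZIC2 OE. The ZNF263 KO libraries were all below WT, the ZNF263 OE libraries were all above it, and the group with ZIC2 overlapped both WT and ZNF263 KO. In ZNF263 KO against WT it fell by 1.06 on the log2 scale (SE 0.28, adjusted p = 0.00417), and pooled counts gave a ratio of 0.477 (46 and 66 counts, interval 0.32 to 0.706). The call held in all 13 alternatives (adjusted p = 0.00252 to 0.0217). The other values were 0.65 in ZNF263 OE against WT (SE 0.24, unadjusted p = 0.0118, adjusted p = 0.277), 0.60 in ZNF263 KO with ZIC2 OE against ZNF263 KO (95% interval -0.03 to 1.22, adjusted p = 0.28) and -0.47 against WT (95% interval -1.04 to 0.11, adjusted p = 0.203). Exons of ZEB1 overlap those of the antisense gene ZEB1-AS1, and the library kit is not named as strand-specific. The antisense gene drew 311 counts over the 12 libraries and ZEB1 264, so the counts of ZEB1 are uncertain.

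ZEB2, a relative of ZEB1 in the ZEB family and also known as SIP1 (chromosome 2, 145141942 to 145277958, minus strand), had the largest change of the set in ZNF263 KO against WT. The levels were 0.809, 1.33 and 1.38 CPM in WT, 1.69, 1.89 and 0.998 in ZNF263 OE, 0.326, 0.474 and 0.326 in ZNF263 KO, and 0.861, 0.497 and 0.527 in ZNF263 KO with ZIC2 OE. ZNF263 KO lay below every other library, and ZNF263 OE and WT overlapped. The log2 fold change in ZNF263 KO against WT was -1.70 (SE 0.34, adjusted p = 0.000422), and pooled counts gave a ratio of 0.302 (30 and 68 counts, interval 0.19 to 0.471). The call held in all 13 alternatives (adjusted p = 4.72e-06 to 0.00477). With ZIC2 the level was 0.81 above ZNF263 KO on the log2 scale (95% interval -0.02 to 1.63, adjusted p = 0.265). Against WT it was -0.90 (SE 0.33, adjusted p = 0.0383), with overlap between the libraries, and that call was lost with DESeq2 (adjusted p = 0.0937), after the correction for GC content and gene length (-0.73, adjusted p = 0.0987) and without WT replicate 2 or 3 or ZNF263 KO with ZIC2 OE replicate 2 or 3 (adjusted p = 0.112 to 0.141). ZEB2-AS1, which also overlaps it, drew 1 count in all.

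The fall of the ZEB genes in ZNF263 KO went with a lower summed level of neuroectoderm markers, mostly through 1 gene, MAP2. The sum of 7 such markers was 47.0 to 58.2 CPM in WT, 56.3 to 58.9 in ZNF263 OE, 25.9 to 29.6 in ZNF263 KO and 32.0 to 39.4 in ZNF263 KO with ZIC2 OE. MAP2, a neuronal microtubule protein gene, was at 45.2 ± 5.32 CPM in WT and 19.3 ± 2.27 in ZNF263 KO. The marker LHX2 was lower too, at 0.894 ± 0.0368 CPM in WT and 0.307 ± 0.0702 in ZNF263 KO. The neural factor PAX6 was at 2.085 ± 0.313 and 2.415 ± 0.399 CPM in these groups, and DCX, a gene of young neurons, at 5.36 ± 0.646 and 4.96 ± 0.749. NEUROG2 was at 0 in ZNF263 OE and no other marker of the list was at 0 in a group. The part of such cells in the ZEB results was not tested. The log2 fold changes of all genes were also related to the GC content of their transcripts, with a Spearman correlation of 0.42 across 14696 genes in ZNF263 KO against WT, which is a description over genes that share these libraries. Transcripts of ZEB1 and ZEB2 have 38.5% and 39.1% GC. After the correction for GC content and gene length, the log2 fold change of ZEB1 was -0.90 (adjusted p = 0.0171) and that of ZEB2 -1.54 (adjusted p = 0.00077).

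TWIST1, a helix-loop-helix factor of mesoderm and EMT (chromosome 7, 19155091 to 19157295, minus strand), was called in ZNF263 KO on few counts. It stood at 0.289, 0.320 and 0.476 CPM in WT, 0.164, 0.166 and 0.272 in ZNF263 OE, 0.885, 1.05 and 0.466 in ZNF263 KO, and 0.861, 0.276 and 0.410 in ZNF263 KO with ZIC2 OE. ZNF263 KO replicate 3 lay below the highest WT library, and all ZNF263 OE libraries lay below WT. The log2 fold change in ZNF263 KO against WT was 1.13 (SE 0.40, adjusted p = 0.0276), and pooled counts gave a ratio of 2.22 (68 and 21 counts, interval 1.34 to 3.81). Of 12 alternatives 7 did not keep the call: DESeq2 (adjusted p = 0.11), the correction for GC content and gene length without and with a replicate block (adjusted p = 0.0575 and 0.0868), and the fits without WT replicate 1 or 2 or ZNF263 KO replicate 1 or 2 (adjusted p = 0.0688 to 0.1). With only ZNF263 KO and WT fitted, TWIST1 did not pass the filter and was not tested. The other comparisons gave -0.82 for ZNF263 OE against WT (95% interval -2.004 to 0.36), -0.62 for ZNF263 KO with ZIC2 OE against ZNF263 KO (95% interval -1.38 to 0.15) and 0.51 against WT (95% interval -0.46 to 1.48). None of these 3 was called, and intervals of this width do not show that the levels were alike. The 8 primitive streak and mesoderm markers summed to 2.66 to 3.05 CPM in WT, 2.29 to 3.72 in ZNF263 OE, 3.45 to 4.32 in ZNF263 KO and 3.445 to 5.35 in ZNF263 KO with ZIC2 OE, and MSGN1 was at 0 in the first 3 of these groups and HAND1 in WT. Their part in the TWIST1 result was not tested.

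The balance of the cadherins is described by the ratio of CDH1 to CDH2 within each library, in CPM per kb and without a test. It was 2.83, 2.92 and 2.67 in WT, 2.81, 2.91 and 2.71 in ZNF263 OE, 2.40, 2.16 and 2.20 in ZNF263 KO, and 3.199, 3.12 and 2.90 in ZNF263 KO with ZIC2 OE. The ZNF263 KO libraries were below all others, and CDH1 remained the more abundant of the pair in every library. With ZIC2 the ratio lay above ZNF263 KO in every library, and its lowest value was below the highest of WT. Both genes stood beside CDH3, another abundant cadherin gene. Of the summed level of 22 cadherin genes per kb, CDH1 made up 39.7 to 41.1% in WT, CDH3 (P-cadherin) 33.3 to 34.5% and CDH2 14.0 to 14.9%. In ZNF263 KO the shares were 35.8 to 38.3% for CDH1, 35.5 to 37.7% for CDH3 and 16.0 to 16.6% for CDH2. In ZNF263 KO with ZIC2 OE they were 42.2 to 43.6%, 31.8 to 32.1% and 13.6 to 14.5%. The ranges of CDH1 and CDH3 thus overlapped in ZNF263 KO and were farthest apart with ZIC2.

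**Figure D3:**
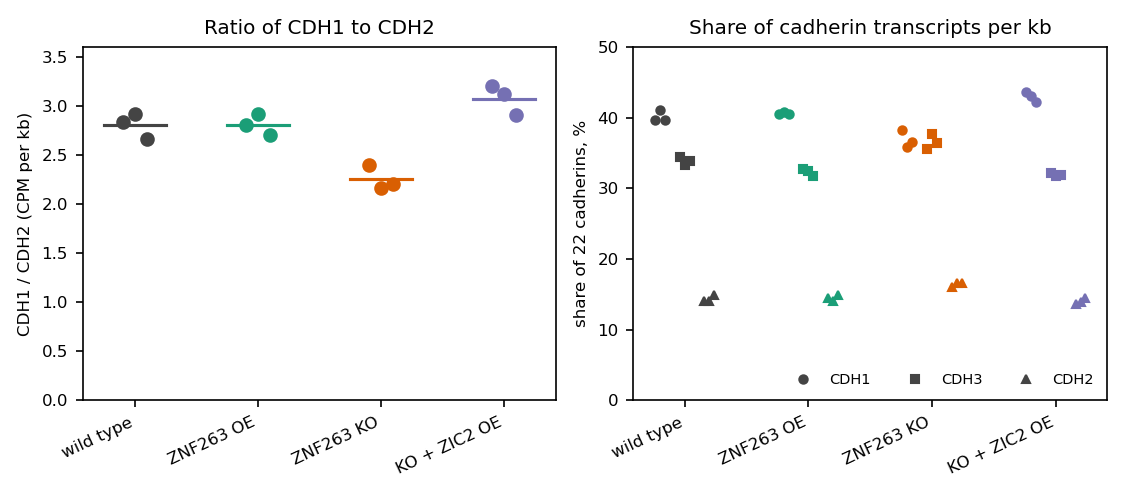
Left, ratio of CDH1 to CDH2 (CPM per kb) in each library, with the mean of each group as a line. Right, share of CDH1, CDH3 and CDH2 in the summed level of 22 cadherin genes per kb, in percent, by group. The ratio is lowest in the 3 ZNF263 KO libraries, at 2.16 to 2.40, and the shares of CDH1 and CDH3 overlap in that group.

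The other genes of the pathway were taken from 8 lists, and their values are log2 fold changes from the same edgeR fit. Over all tested genes, 20.0% were called higher and 18.5% lower in ZNF263 KO against WT. With ZIC2 the shares were 4.99% and 3.35% against ZNF263 KO, and 20.3% and 17.3% against WT. In ZNF263 OE against WT they were 0.317% and 0.447%. A count near these shares is not a result about a list. Among the other EMT transcription factors, 10 of 14 were tested, and in ZNF263 KO against WT 3 rose and 2 fell (median log2 fold change 0.20), and after the GC and length correction 2 and 1. TCF3, which encodes the E-protein partner of TWIST1, was higher by 0.19 (adjusted p = 0.00013) and ETS1 by 0.44 (adjusted p = 4.32e-07), while the related E-protein gene TCF12 was lower by -0.24 (adjusted p = 8.64e-05). With ZIC2 against ZNF263 KO, 2 were higher and 2 lower. SOX9, a partner of SNAI2 in neural crest, rose by 0.72 (adjusted p = 3.84e-06) and ZNF703 by 1.42 (adjusted p = 4.87e-06), and ETS1 was lower by -0.36 (adjusted p = 2.2e-05). SOX9 stood at 7.385, 8.96 and 8.49 CPM in ZNF263 KO and at 13.2, 13.6 and 13.4 CPM with ZIC2, without overlap, as for SNAI2. Against WT, 3 were higher and 2 lower with ZIC2, SOX9 by 0.63, ZNF703 by 2.13 and TCF12 by -0.28 among them. In ZNF263 OE against WT 0 of 10 were called.

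The lists of epithelial genes held more rises than falls in ZNF263 KO against WT. Of 10 tested epithelial splicing and transcription factors 6 rose and 1 fell (median log2 fold change 0.28), beside 20.0% higher and 18.5% lower over all genes. KLF5 rose by 1.14 (adjusted p = 1.57e-05) and ELF3 by 0.69 (adjusted p = 0.000104), both epithelial transcription factor genes. ESRP2, an epithelial splicing regulator that sets the splice forms of CTNND1 and CD44, rose by 0.25 (adjusted p = 0.000253). Its more abundant relative ESRP1, chosen after its values were seen, went the other way. ESRP1 stood at 241, 246 and 247 CPM in WT and at 232, 221 and 237 CPM in ZNF263 KO. Of 32 epithelial junction and surface genes, all tested, 16 rose and 2 fell (median 0.18). Examples of the rises were PKP2 (plakophilin of the desmosome, 0.59, adjusted p = 2.4e-09), the protease inhibitor gene SPINT1 (0.36, adjusted p = 2.67e-07) and LSR of tricellular junctions (0.36, adjusted p = 1.02e-06). DSP, another desmosome gene, chosen after its values were seen, went the other way. It stood at 89.2 ± 6.46 CPM in WT and 62.0 ± 8.99 in ZNF263 KO, without overlap. After the correction for GC content and gene length, the 2 lists had 5 higher and 0 lower, and 15 higher and 1 lower. The lists of epithelial and mesenchymal genes therefore both held more rises than falls in the same comparison.

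With ZIC2 against ZNF263 KO, the epithelial factors split into 3 higher and 2 lower, and without ZNF263 KO with ZIC2 OE replicate 1 into 1 and 0. OVOL1, the gene of an epithelial zinc finger factor, rose by 0.69 (adjusted p = 0.00126), ELF3 rose by 0.43 (adjusted p = 0.0111) and KLF5 was lower by -0.66 (adjusted p = 0.00945). ELF3 and KLF5 lost their calls with DESeq2 (adjusted p = 0.0826 and 0.0694) and without ZNF263 KO with ZIC2 OE replicate 1 (adjusted p = 0.104 and 0.0939), ELF3 also without ZNF263 KO replicate 1 (adjusted p = 0.0975). Among the junction genes 2 were higher and 3 lower, and after the GC and length correction 3 and 8. Without ZNF263 KO with ZIC2 OE replicate 1 or 2 the junction genes had 1 higher and 2 lower or 2 higher and 1 lower. CGN (cingulin of tight junctions) rose by 0.34 (adjusted p = 1.96e-05), DSP (desmoplakin) by 0.29 (adjusted p = 0.017), and PKP2 was lower by -0.26 (adjusted p = 0.00047). DSP lost its call without ZNF263 KO replicate 3 (adjusted p = 0.0522) or ZNF263 KO with ZIC2 OE replicate 1 (adjusted p = 0.17). Its mean with ZIC2 was 76.4 ± 6.75 CPM, still below the WT mean of 89.2 CPM. Against WT, the group with ZIC2 had 5 higher and 1 lower factors and 16 higher and 6 lower junction genes, with medians of 0.295 and 0.17. GRHL3 (1.31), ELF3 (1.1215), OVOL1 (0.84), CGN (0.40), LSR (0.37) and CLDN6 (0.30) were among the higher. In ZNF263 OE 0 of the 10 factors and 0 of the 32 junction genes were called, and after the GC and length correction 2 and 1 were lower.

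Of the other cadherins, 13 of 20 were tested, of which 4 were higher and 3 lower in ZNF263 KO against WT. CDH3 rose by 0.29 (adjusted p = 1.57e-06), from 176, 169 and 173 CPM in WT to 207, 214 and 212 CPM, and CDH11, the mesenchymal cadherin gene, by 0.43 (adjusted p = 4e-04). CDH9 fell from 1.56, 1.60 and 1.905 CPM to 0.582, 0.369 and 0.466 CPM (log2 fold change -1.75, adjusted p = 4.15e-05). CDH2 thus rose beside the epithelial CDH3 and the mesenchymal CDH11. DESeq2 called 2 higher and 2 lower in that comparison. Under ZIC2, compared with ZNF263 KO, 3 were higher and 2 lower, and 3 and 0 without ZNF263 KO with ZIC2 OE replicate 2 or with only this pair of groups. CDH5 (VE-cadherin of endothelium) rose from 0.582, 0.527 and 0.420 to 2.53, 2.26 and 2.52 CPM (log2 fold change 2.20, adjusted p = 5e-07), CDH4 by 0.44 (adjusted p = 0.000331) and CDH6 by 0.62 (adjusted p = 0.0048). Against WT 4 were higher and 1 lower with ZIC2, and after the GC and length correction 2 and 1. CDH5 was higher by 1.19, CDH11 by 0.57 and CDH9 was lower by -1.32. In ZNF263 OE CDH6 alone was called, at 0.57 (adjusted p = 0.0371). It lost that call with DESeq2, with the replicate block and without any 1 of WT replicates 1, 2 and 3 or ZNF263 OE replicates 2 and 3 (adjusted p = 0.0505 to 0.317).

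Catenins and other parts of the adherens junction, where the cadherin tails attach, were called about as often as all genes in ZNF263 KO against WT. Of 14 tested genes 3 were higher and 3 lower, beside 20.0% higher and 18.5% lower over all genes. JUP (plakoglobin, 0.33, adjusted p = 3.39e-06), NECTIN2 (0.32, adjusted p = 5.78e-07) and VCL (vinculin, 0.24, adjusted p = 2.32e-05) were the first 3 by adjusted p. With ZIC2 against ZNF263 KO 1 was higher and 2 lower. JUP rose by a further 0.20 (adjusted p = 0.00305), and NECTIN2 (-0.16, adjusted p = 0.00798) and NECTIN1 (-0.16, adjusted p = 0.011) were lower. NECTIN1 lost its call with only this pair of groups (adjusted p = 0.0606) and without ZNF263 KO with ZIC2 OE replicate 2 (adjusted p = 0.0648). Against WT 4 were higher and 3 lower with ZIC2, JUP (0.53) and VCL (0.30) among the higher. NECTIN2 was also called higher there (0.17, adjusted p = 0.00136), and after the GC and length correction its direction turned (-0.01, adjusted p = 0.825).

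Mesenchymal genes held more rises than falls in both knockout groups against WT and were the list with the most calls in ZNF263 OE. Of 24 tested genes, of 28 listed, 13 rose and 2 fell in ZNF263 KO against WT (median 0.16). Over all genes 20.0% were higher and 18.5% lower. TAGLN (transgelin, an actin-binding protein gene) rose by 1.56 (adjusted p = 4.41e-13) and CTGF by 0.89 (adjusted p = 9.98e-13). In ZNF263 OE against WT 0 were higher and 4 lower, beside 0.317% and 0.447% over all genes. Among them were TAGLN (-0.51, adjusted p = 0.000734), CALD1 (-0.35, adjusted p = 6.5e-06) and CTGF (-0.29, adjusted p = 0.00159), the last of which lies outside the naming rule and was chosen after its values were seen. Both comparisons use the same WT libraries. VIM, in contrast, had 0.12 (adjusted p = 0.516) in ZNF263 OE.

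With ZIC2 against ZNF263 KO the mesenchymal list split into 7 higher and 5 lower, beside 4.99% and 3.35% over all genes. COL1A1, the main fibrillar collagen gene, rose from 103, 116 and 112.5 to 235, 201 and 196 CPM (0.94, adjusted p = 4.49e-11), and LOXL2, a collagen cross-linking enzyme gene, by 0.68 (adjusted p = 9.85e-09), while CTGF was lower by -0.42 (adjusted p = 6.55e-07). Against WT 14 were higher and 3 lower with ZIC2 (median 0.35), COL1A1 by 1.61 and TAGLN by 1.46. COL1A1 thus rose under ZIC2 where VIM was lower, while the collagen gene COL6A1, chosen after its values were seen, was lower too (-0.20 against ZNF263 KO, adjusted p = 0.0475). COL6A1 stood at 106, 87.9 and 88.3 CPM in ZNF263 KO and at 77.6, 86.7 and 83.9 CPM with ZIC2. The highest value was that of ZNF263 KO replicate 1, and the adjusted p lay close to 0.05.

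VIM belongs to the intermediate filament family, of which 14 others were tested. The knockout against WT gave 5 higher and 0 lower, beside 20.0% higher and 18.5% lower over all genes. Among the higher was KRT8, the keratin of simple epithelia (0.34, adjusted p = 4.24e-06). LMNA (lamin A/C) rose by 0.58 (adjusted p = 1.16e-07) and NES (nestin) by 0.41 (adjusted p = 7.11e-08). KRT8 and VIM were therefore both higher in these libraries. The addition of ZIC2 gave 4 higher and 2 lower against ZNF263 KO, and without ZNF263 KO with ZIC2 OE replicate 1 these were 2 and 1. The shares over all genes were 4.99% and 3.35%. LMNA rose by 0.69 (adjusted p = 8.89e-09), from 69.15, 74.6 and 69.6 to 127, 111 and 105 CPM, DES (desmin) by 1.78 (adjusted p = 0.000207), and NEFL was lower by -0.25 (adjusted p = 0.00771). Against WT 9 were higher and 1 lower with ZIC2, with LMNA at 1.28, NES at 0.47 and KRT19 at 0.46. After the GC and length correction, 6 were higher and 3 lower. In ZNF263 OE KRT7 alone was called (0.55, adjusted p = 0.0293), and it lost that call with DESeq2 (adjusted p = 0.064) and without any 1 of the 6 libraries compared (adjusted p = 0.0811 to 0.153).

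TGF-beta signalling, the best known inducer of an EMT, was represented by 16 ligand, receptor and SMAD genes, all tested. In ZNF263 KO against WT 4 were higher and 2 lower, beside 20.0% higher and 18.5% lower over all genes. The list was thus called about as often as all genes. After the GC and length correction 7 were higher and 0 lower. The ligand gene TGFB1 rose by 0.56 (adjusted p = 6.04e-06), the inhibitor SMAD7 by 0.40 (adjusted p = 1.14e-05) and the signal transducer SMAD3 by 0.33 (adjusted p = 0.000153). TGFB1 stood at 11.7, 10.3 and 10.8 CPM in WT and at 16.1, 15.9 and 16.3 CPM in ZNF263 KO. With ZIC2 against ZNF263 KO, 0 were higher and SKIL, a SMAD corepressor gene, was lower by -0.18 (adjusted p = 0.0152), and 5 were lower after the GC and length correction. SKIL lost its call with only this pair of groups (adjusted p = 0.0615) and without ZNF263 KO replicate 1 or ZNF263 KO with ZIC2 OE replicate 1 (adjusted p = 0.0632 and 0.129), and 3 genes were lower without ZNF263 KO replicate 2. Against WT 4 were higher and 4 lower with ZIC2, TGFB1 by 0.55, SMAD7 by 0.30 and SMAD4 by -0.20. The GC and length correction left 2 higher and 1 lower and ended the calls of SMAD7 (adjusted p = 0.0939) and SMAD4 (adjusted p = 0.226). In ZNF263 OE 0 of 16 were called.

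**Figure D4:**
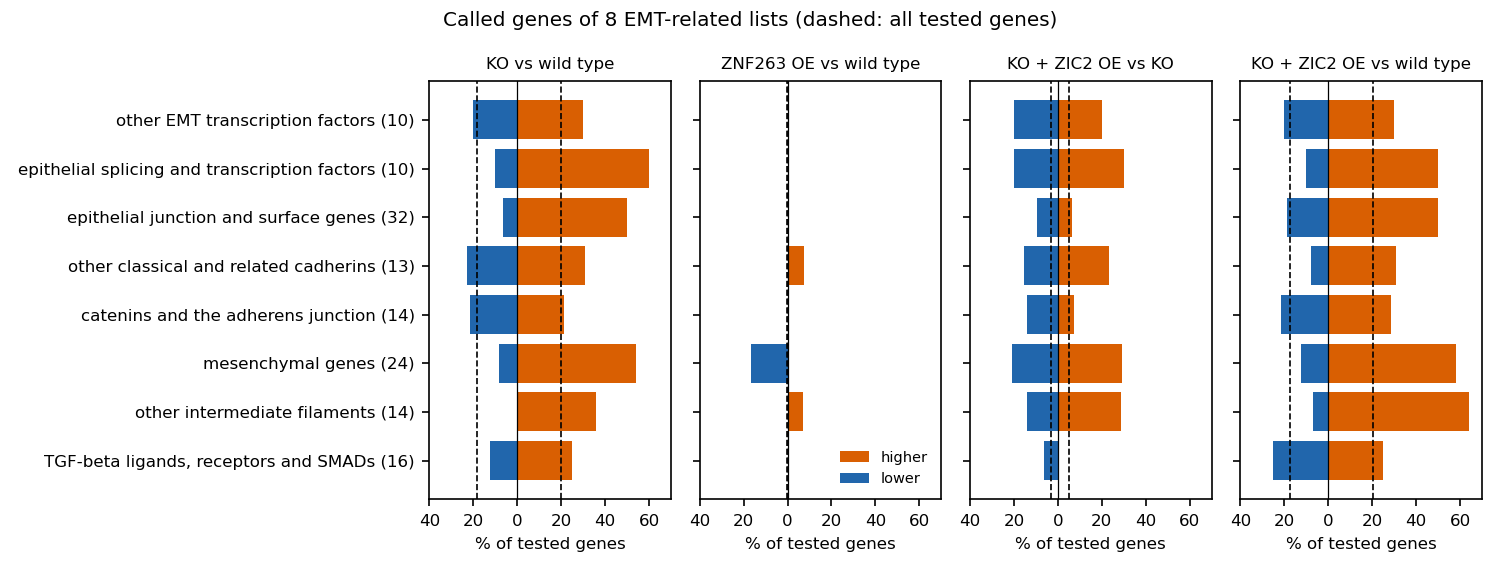
Share of the tested genes of each list (number in brackets) that were called higher (right of 0) or lower (left of 0), in percent, in the 4 comparisons. Dashed lines give the same shares over all tested genes, 20.0% higher and 18.5% lower in ZNF263 KO against WT. In that comparison, 16 of 32 junction genes and 13 of 24 mesenchymal genes are higher.

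The genes whose pattern over the 12 libraries was most like that of each member were sought among 10728 genes whose mean reached 5 CPM. Likeness was the root mean square (RMS) difference between log2 CPM values after each gene was centred on its mean, so a small value means a like pattern. SNAI2 was nearest to NGFR (RMS difference 0.256) and WNT5A (0.308), where its own SD over the libraries was 0.815. For CDH1 the nearest were RRBP1 (0.0361) and DLGAP4 (0.0398), and for CDH2 they were NECTIN2 (0.0442), the gene of an immunoglobulin-like adherens junction receptor, and CAPN1 (0.0471). The SDs of these 2 cadherins were 0.148 and 0.165. VIM was nearest to WDR18 (0.0558) and POLR2L (0.0617), with an SD of 0.25, and EPCAM to GNPDA1 (0.0402) and LRFN3 (0.0431), with an SD of 0.121. ZEB2 was nearest to USP3 (0.3) and MAP2 (0.31), ZEB1 to SHANK1 (0.275) and MMP17 (0.282), and SNAI1 to SLC2A12 (0.108) and KCTD13 (0.11). For TWIST1, whose counts are few, the nearest were PLPPR4 (0.365) and ADAP1 (0.426), beside its own SD of 0.721. No gene was found for more than 1 of the 9.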

How the data were processed

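Libraries were made from poly(A) RNA with an NEBNext Ultra II kit that is not named as strand-specific, per the labels' protocols. The authors deposited raw read counts per gene, 1 column per library. The submitters' processing notes name STAR, featureCounts, DESeq2 and hg19, with no version or setting. From these counts, 15437 of 27130 genes passed filterByExpr. CPM use TMM factors, and CPM per kb use the deposited gene lengths. The quasi-likelihood test of edgeR 4.0.16 (R 4.3.3) used all 12 libraries and group alone, with Benjamini-Hochberg adjustment over all tested genes, leaving 8 residual degrees of freedom. Every adjusted p is from that fit unless another is named. The fit was tested on simulated counts.

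The 9 members, the 8 gene lists and the 7 marker lists were chosen with earlier results of these data known, so no count over them is independent evidence. The text names the 9 genes, ZNF263, ZIC2, up to 3 called genes per list and comparison with the smallest adjusted p, and the 2 genes nearest in pattern to each member. Markers named from the marker lists were chosen after their values were seen. One gene of the lists that this rule would name is counted but not reported here.

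Alternatives were DESeq2 size factors, the DESeq2 1.42.0 Wald test, no filter, only the groups compared, a replicate block, a correction for GC content and length (splines with 5 degrees of freedom, GC known for 95.2% of tested genes) without and with that block, and leaving out each library. Seed matches and GC content came from GENCODE v29, and the microRNA and promoter sequences from RefSeq. No deposited sample column was left out.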

Additional observations from a re-analysis of the deposited data

How the results depend on the processing

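The number of the 9 genes called was within 1.5 times its main value under 49 of 52 alternatives. These include the alternatives of ZNF263 OE against WT, where the number was 0 throughout, as in the main fit. The margin also admits a fall from 7 to 5. In ZNF263 KO with ZIC2 OE against ZNF263 KO the number was 3 in place of 6 when only these groups were fitted. Leaving out 1 library gave 4 to 5 calls in ZNF263 KO against WT, 0 to 0 in ZNF263 OE against WT, 3 to 6 in ZNF263 KO with ZIC2 OE against ZNF263 KO, and 5 to 7 against WT. Libraries with the same number did not deviate together (correlations of -0.11 to 0.11 over the 4 comparisons), so the numbers were not taken as pairs. With the replicate block, 5, 0, 6 and 7 of the 9 genes were called in the comparisons of ZNF263 KO with WT, ZNF263 OE with WT, and ZNF263 KO with ZIC2 OE with ZNF263 KO and with WT, the same numbers as without it. NECTIN2 in ZNF263 KO with ZIC2 OE against WT turned from 0.17 to -0.0116 after the GC and length correction and to -0.0112 with the replicate block added.

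Over all genes, ZNF263 OE against WT had 118 calls, and 220 without a filter, 431 with only these groups, 226 after the GC and length correction, 230 with the block added, and 50 to 77 without 1 library. ZNF263 KO with ZIC2 OE against ZNF263 KO had 1288, and 2295 and 2251 after the correction without and with the block, and 842 without ZNF263 KO with ZIC2 OE replicate 1. The cause of these shifts was not tested. Low counts limit ZEB1, ZEB2 and TWIST1 most: with 12 to 106 pooled counts per group, a change of the size seen in CDH2 was not detectable for them.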
